A study of Homo sapiens with 16 samples.

Results

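Of the enzymes that carry squalene to cholesterol, 9 were followed through 45 h of HER2 kinase inhibition. The mRNA of each of the 9 was lower on the treated arrays from 9 h on than on the untreated array. The genes are, in the order in which their enzymes act, SQLE, LSS, CYP51A1, SC4MOL, NSDHL, HSD17B7, EBP, SC5DL and DHCR7. They were chosen by pathway and not by a cut on their values, although earlier results of these data were known. They are 9 of the 18190 gene symbols on the array. Their symbols stand on 11 of the 20589 probes, and each gene is described by its detected probe with the highest mean signal. SC4MOL is the older name of MSMO1 and SC5DL that of SC5D.

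The cells were MCF10HER2, which was made from MCF10A, a human line of nontransformed breast epithelium, by stable transduction with the receptor tyrosine kinase HER2. They grew in serum-free medium without insulin and with epidermal growth factor and hydrocortisone. One culture was harvested untreated at 0 h, and 15 parallel cultures received CP724,714, which inhibits the kinase of HER2, at 1 µM and were harvested every 3 h from 3 to 45 h. Each of the 16 time points has 1 array, so there are no replicates and a value has no error of its own beyond how far the arrays scatter around a trend in time. Medium was renewed when the drug was added and no later untreated culture was analysed here, so that time in culture and inhibition cannot be told apart.

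Cells make cholesterol from acetyl-CoA, by way of mevalonate to squalene and then through a series of sterols. The reactions after squalene take place in the endoplasmic reticulum, consume oxygen and NADPH, and are specific to sterols. Most genes of the pathway are targets of SREBP2 (gene SREBF2), a transcription factor that is held in the endoplasmic reticulum while the membrane is rich in sterol and is released when sterol runs low. Proliferating cells in serum-free medium depend largely on their own synthesis for the cholesterol of new membranes.

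Between 10363 and 11436 probes were detected on an array. The arrays fell into 2 groups by background signal, at 135.9 to 148.9 from 0 to 21 h and at 164.5 to 173.9 from 24 to 45 h, and these are treated as array batches although the labels name no chip. The 9 h and 18 h arrays were dimmer, with upper quartile intensities of 397 and 418 against 553 to 804 on the others. Of 7 mammary epithelial markers 6 are on the array, and 4 (KRT5, KRT17, KRT18 and EGFR) were detected on 16 of 16 arrays. CDH1 was detected on 15 arrays and KRT14 on 1. Of the probes of ERBB2 itself, the one detected most often was detected on 7 arrays, so that these values do not check the over expression of the receptor. Of the markers of other cell types, CDH5 and COL1A1 and the adipocyte marker PLIN were detected on 0 arrays, CD3E on 1, COL3A1 on 2, PTPRC on 7 and PECAM1 on 16.

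The stretches of DNA before the start sites are shown first, as a description of their letters. Promoter sequences from RefSeq (GRCh38.p14) matched 8 of the 9 genes in 10 windows, 1 window for each start site, and SQLE was not among them. The 250 bases before each start were searched on both strands for 4 motifs: TCACNCCAC, the core of the sterol regulatory element, CCAAT, the box bound by NF-Y, GGGCGG, the box bound by SP1, and CACGTG, an E-box. The following 4 windows are shown 5′ to 3′ on the gene's strand, with CCAAT or its reverse complement ATTGG in capitals. LSS and DHCR7 are shown because they had the greatest falls below 0 h, NSDHL because its window holds the most capitals, and CYP51A1 because its window holds none.
LSS, chr21:46228775-46229024, minus strand: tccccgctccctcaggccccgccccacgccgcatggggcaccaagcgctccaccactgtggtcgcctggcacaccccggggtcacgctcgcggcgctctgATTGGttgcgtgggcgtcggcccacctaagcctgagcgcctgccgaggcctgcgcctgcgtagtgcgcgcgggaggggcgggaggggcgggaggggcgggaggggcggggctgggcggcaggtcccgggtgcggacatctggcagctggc
DHCR7, chr11:71448394-71448643, minus strand: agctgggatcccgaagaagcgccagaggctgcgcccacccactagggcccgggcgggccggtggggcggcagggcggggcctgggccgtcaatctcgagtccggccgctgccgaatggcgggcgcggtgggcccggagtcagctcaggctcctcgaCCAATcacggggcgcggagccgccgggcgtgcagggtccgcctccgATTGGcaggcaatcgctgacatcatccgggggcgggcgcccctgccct
NSDHL, chrX:152830813-152831062, plus strand: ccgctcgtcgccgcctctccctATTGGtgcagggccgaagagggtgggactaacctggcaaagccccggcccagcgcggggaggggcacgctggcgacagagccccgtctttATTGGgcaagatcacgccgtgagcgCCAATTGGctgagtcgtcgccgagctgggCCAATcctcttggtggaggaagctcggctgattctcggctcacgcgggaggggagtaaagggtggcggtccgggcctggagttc
CYP51A1, chr7:92134478-92134727, minus strand: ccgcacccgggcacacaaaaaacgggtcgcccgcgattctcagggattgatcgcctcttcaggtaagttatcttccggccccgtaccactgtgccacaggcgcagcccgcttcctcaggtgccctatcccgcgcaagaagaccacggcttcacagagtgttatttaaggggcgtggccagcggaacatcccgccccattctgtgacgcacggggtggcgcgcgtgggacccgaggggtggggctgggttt

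CCAAT was found in 7 of the 8 genes, all but CYP51A1. By window it was in 8 of 10, against 32.0% of the 35116 windows of all genes. In the LSS window it lies 150 bases before the start. In the DHCR7 window shown it occurs at 94 and 48 bases before the start. DHCR7 has another window, not shown, which holds none of the motifs searched for. GGGCGG was also found in 7 of the 8 genes, all but NSDHL, and in 8 of 10 windows, against 42.6% of all windows. CACGTG was found in SC5DL alone, in 2 of the 10 windows, which overlap, against 6.34%. TCACNCCAC was found in 0 of the 8 genes and in 0.883% of all windows, which says only that these letters are not in these windows. A match to a motif is a description of the letters and was not set against the expression values.

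The values below are log2 signals after background correction and quantile normalization, and a level is read only within a probe, never between probes. The probes were ILMN_521 for SQLE, ILMN_30260 for LSS, ILMN_1634 for CYP51A1, ILMN_2770 for SC4MOL, ILMN_13529 for NSDHL, ILMN_5318 for HSD17B7, ILMN_12837 for EBP, ILMN_24287 for SC5DL and ILMN_2138 for DHCR7. All 9 were detected on 16 of 16 arrays. Separate fits were made for every detected probe on the array, and their p-values were adjusted over all 12321 tested probes. They were a smooth curve in time, a straight line in time, whose log2 change from 0 to 45 h is given with a standard error (SE), and the treated arrays against the untreated one. RNA was taken from whole cultures, so less mRNA per cell and fewer cells expressing a gene cannot be told apart.

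SQLE, squalene epoxidase, adds oxygen to squalene and is a rate-limiting enzyme of the pathway. On the 0, 3, 6, 9 and 12 h arrays its signal was 9.75, 10.60, 9.95, 9.56 and 9.10. From 12 h on it lay between 8.43 and 9.10, and the 4 arrays from 36 to 45 h were the lowest of the course, at 8.43 to 8.50. The mRNA was thus above its untreated level at first and below it on 13 of 15 treated arrays. The straight line fell by 1.68 over 45 h (SE 0.25, limma adjusted p = 0.000113), and the untreated level was 2.50 times the lowest one.

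LSS, lanosterol synthase, folds the epoxide into lanosterol, the first sterol. On the 0, 3, 6, 9 and 12 h arrays its signal was 12.66, 12.03, 11.86, 11.11 and 10.47. The 12 h array was its lowest, 4.55-fold below 0 h, and from 12 to 45 h all arrays lay between 10.47 and 10.86. LSS thus had the largest fall below 0 h among the 9 genes and was at its floor by 12 h. It was lower than 0 h by 1.7-fold or more on 14 of 15 treated arrays, from 6 h on. The second probe of LSS, also detected on 16 arrays, went from 9.81 at 0 h to 8.04 at its lowest and 8.15 at 45 h, and its line fell by 1.38 (SE 0.31, limma adjusted p = 0.00306) against 1.27 for the main probe (SE 0.36, limma adjusted p = 0.0146). From 12 h on the second probe's deposited intensity was 221 to 374, where array background was 135.9 to 173.9, so background may limit its fall. Without the 0 h array the main probe's fall was 0.82 (limma adjusted p = 0.0751).

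CYP51A1, a cytochrome P450, removes a methyl group from lanosterol. Its signal was 10.51, 10.80, 10.06, 10.29 and 9.51 on the arrays from 0 to 12 h. From 12 to 45 h it moved between 9.28 at 36 h and 9.80 at 27 h, and at 45 h it was 9.79. Its arrays from 12 h on spanned 0.52, where the 9 genes ranged from 0.21 for SC5DL to 0.79 for EBP, and its level at 45 h was 1.64-fold below 0 h, the smallest final difference of the 9. The line fell by 0.95 (SE 0.24, limma adjusted p = 0.00824).

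SC4MOL and NSDHL act in turn on the methyl groups at the fourth carbon of the sterol, SC4MOL as the oxidase and NSDHL as the decarboxylating dehydrogenase. On the 0, 3, 6, 9 and 12 h arrays SC4MOL had a signal of 13.16, 13.63, 13.05, 12.33 and 11.88, and stayed between 11.66 and 12.03 from then on. NSDHL had 11.93, 12.14, 11.63, 11.47 and 10.80 on the same arrays, and stayed between 10.70 and 10.95. In both genes every array from 12 to 45 h lay below the arrays from 0 to 9 h. The same held for each of the 9 genes but HSD17B7, and the share over all probes was not counted. The untreated level was 2.83 times the lowest one for SC4MOL and 2.35 times for NSDHL, both reached at 18 h. The lines fell by 1.29 for SC4MOL (SE 0.31, limma adjusted p = 0.00511) and by 1.08 for NSDHL (SE 0.24, limma adjusted p = 0.00306).

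HSD17B7 reduces the ketone that NSDHL leaves. The arrays from 0 to 9 h gave 11.79, 11.86, 11.53 and 11.16, and those from 12 to 45 h lay between 10.89 and 11.35. It moved least of the 9, with a fall of 0.59 over 45 h (SE 0.19, limma adjusted p = 0.0270), and passed 1.7-fold below 0 h on 5 of 15 treated arrays. Its call was lost with arrays scaled to a common median (limma adjusted p = 0.170), with no detection filter (limma adjusted p = 0.0563), with array weights (limma adjusted p = 0.407), with a block for array batch (limma adjusted p = 0.208), and without the 0, 3, 6 or 45 h array.

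EBP shifts a double bond within the sterol ring. On the 0, 3, 6, 9 and 12 h arrays its signal was 13.73, 13.39, 13.14, 13.14 and 12.90. It then went lower over the remaining course, from 12.42 to 12.76 at 24 to 33 h to between 12.11 and 12.28 at 36 to 45 h. EBP, like LSS, was above its untreated level on none of the treated arrays. Its line fell by 1.36 over 45 h (SE 0.15, limma adjusted p = 5.68e-06), with the smallest SE of the 9.

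SC5DL puts in the double bond that DHCR7 leaves in place while it reduces another, which gives cholesterol in this branch. On the 0, 3, 6, 9 and 12 h arrays SC5DL had a signal of 10.47, 10.96, 10.22, 9.97 and 9.43, and from then on stayed between 9.22 and 9.43. Its later arrays spanned 0.21, the narrowest range of the 9 genes, and its line fell by 1.13 (SE 0.28, limma adjusted p = 0.00722). A second probe of SC5DL was detected on 0 arrays and was not tested.

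Loss of DHCR7 in people causes Smith-Lemli-Opitz syndrome. Its signal on the 0, 3, 6, 9 and 12 h arrays was 12.18, 12.34, 11.93, 11.39 and 10.18. The 12 h array differed from the 9 h array by -1.21, the largest drop between successive arrays in any of the 9 genes. From 12 to 45 h it lay between 10.15 and 10.60, with the lowest value, 4.10-fold below 0 h, at 36 h. The line fell by 1.63 (SE 0.39, limma adjusted p = 0.00453).

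**Figure D1:**
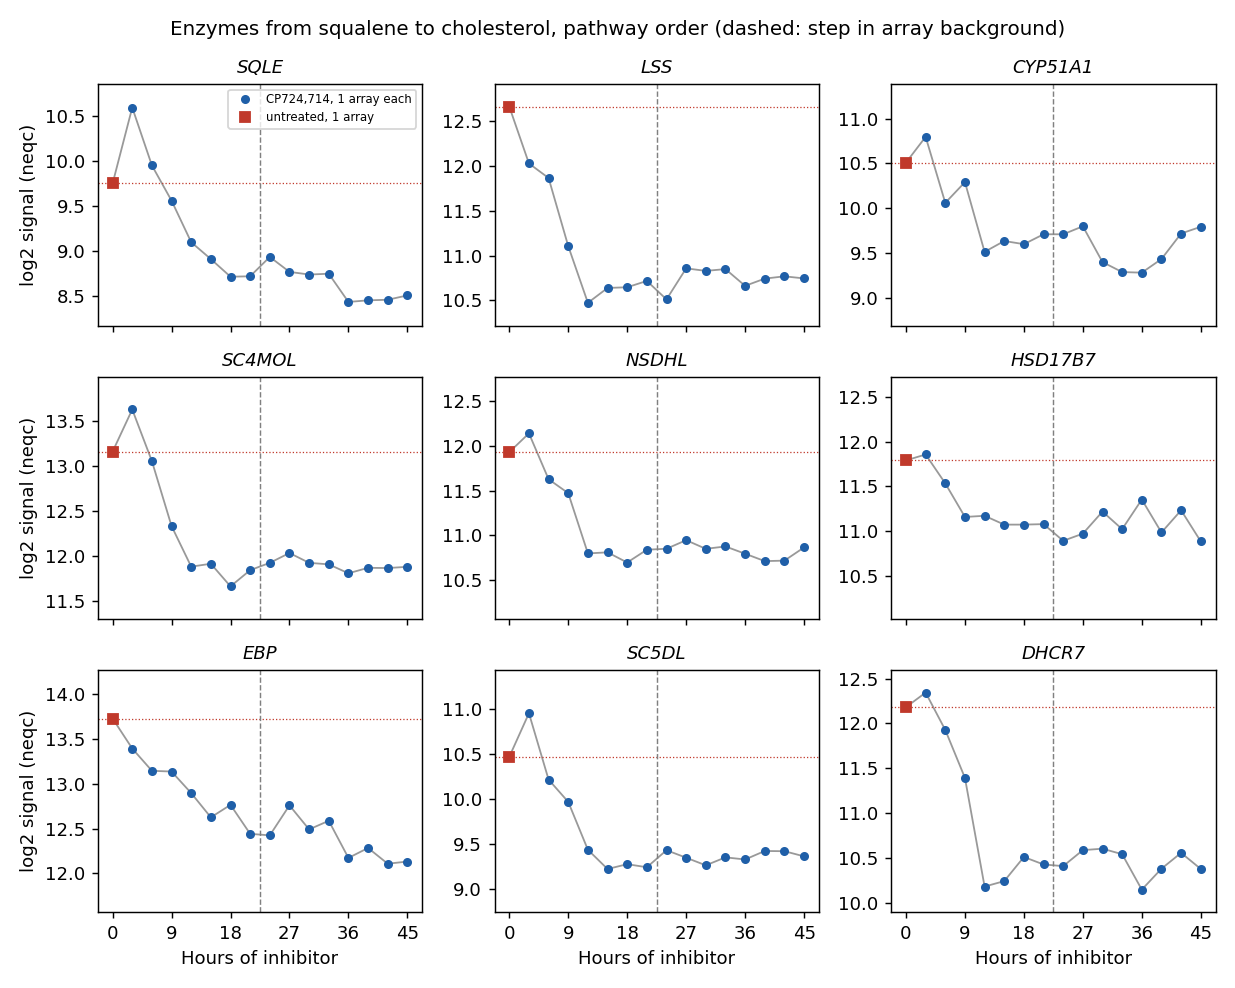
Log2 signal of the 9 genes against hours of CP724,714 (0 to 45 h), 1 panel a gene in pathway order, 1 point an array. Most panels step down between 3 and 12 h and are level after that, while SQLE and EBP were lower again from 36 h.

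The smooth curve in time passed the threshold for 9 of the 9 genes, with limma adjusted p-values up to 0.00137, where 41.9% of all tested probes passed. The straight line was lower for 9 of 9, against 11.5% of all probes. The median change of the 9 over 45 h was -1.27, and it was -0.0022 over all tested probes. With array weights the linear count was 2 of 9 (SQLE and EBP), and with array batch as a block it was 5.

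The treated arrays together were below the untreated one for 9 of 9 genes, against 10.3% of all probes. The difference ran from -0.62 for HSD17B7 (SE 0.15, limma adjusted p = 0.00887) to -1.76 for LSS (SE 0.19, limma adjusted p = 4.63e-06), with a median of -0.93. This test takes the lone 0 h array to vary like the treated ones about their curve. When the treated arrays were fitted as one mean, so that their course counted as error, LSS alone passed (limma adjusted p = 0.0328). Each of the 9 genes was also lower than 0 h by at least 1.7-fold, the fold used in the study, at some time point, as 9.47% of all probes were.

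The first 3 h differed from the rest of the course. At 3 h 7 of the 9 genes were above their 0 h level, where 51.9% of all probes were, and LSS and EBP were below it by 0.63 and 0.33. SQLE was 1.80-fold above 0 h at 3 h, as the single member past 1.7-fold, which 1.46% of all probes were. These 3 h directions rest on quantile normalization: with arrays scaled to a common median, SQLE alone was above 0 h at 3 h, by 1.27-fold. In the deposited intensities, before any scaling, SQLE was 1210 at 0 h and 1677 at 3 h, and LSS was 7827 and 4043. EBP was 15832 and 9931. SQLE was thus higher, and LSS and EBP lower, at 3 h in each of these, while CYP51A1, SC4MOL, NSDHL, HSD17B7, SC5DL and DHCR7 changed direction with median scaling. No test bears on a single array. At 6 h 8 of the 9 were below 0 h, all but SQLE, and at each time from 9 to 45 h 9 of 9 were, also with median scaling.

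The course was then cut into 5 phases, whose arrays are successive time points and not replicates. From 0-3 h to 6-9 h, 7 of the 9 genes fell, where 13.0% of all probes did, with a median change of -0.48 over the 9. LSS fell by 0.86 (SE 0.21, limma adjusted p = 0.00462) and SC4MOL by 0.70 (SE 0.17, limma adjusted p = 0.00578). SQLE, at -0.42 (limma adjusted p = 0.123), and CYP51A1, at -0.48 (limma adjusted p = 0.0585), did not pass. Some of these calls were lost, and others made, without single arrays. Without the 9 h array the change was -0.48 for LSS (limma adjusted p = 0.129) and -0.34 for SC4MOL (limma adjusted p = 0.163). Without the 0 h array it was -0.54 for LSS (limma adjusted p = 0.0678), while SQLE, at -0.84 (limma adjusted p = 0.000672), and CYP51A1, at -0.62 (limma adjusted p = 0.0335), then passed. Without the 3 h array it was -0.47 for SC4MOL (limma adjusted p = 0.0651) and 0.0044 for SQLE. Without the dim 9 h array the count was 2 of 9, without the 9 h and 18 h arrays it was 1, and without the 3 h array it was 4.

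From 6-9 h to 12-21 h, 8 of the 9 genes fell, where 17.8% of all probes did, and 0 of 9 rose, where 16.9% did. The median change was -0.80, larger than that of the first step. With median scaling the order of the steps turned, with medians of -0.62 for the first and -0.49 for the second. DHCR7 fell by 1.32 (SE 0.14, limma adjusted p = 3.05e-06), SQLE by 0.90 (SE 0.17, limma adjusted p = 0.000467) and NSDHL by 0.76 (SE 0.10, limma adjusted p = 1.60e-05). HSD17B7, at -0.25, did not pass (limma adjusted p = 0.167). With median scaling 5 of the 9 passed, and LSS, CYP51A1 and EBP no longer did.

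From 12-21 h to 24-33 h 0 of 9 genes passed in either direction, where 0.284% of all probes were lower and 0.179% higher. The changes ran from -0.12 for EBP to 0.19 for DHCR7, and 0 of the 9 had an unadjusted limma p under 0.05. This step crosses the border between the array batches, and time and batch cannot be told apart in it. From 24-33 h to 36-45 h EBP alone fell, by 0.39 (SE 0.10, limma adjusted p = 0.00956), where 9.45% of all probes fell and 10.3% rose, and 0 of 9 members rose. SQLE changed by -0.34 there (SE 0.14, limma adjusted p = 0.0966). With median scaling the call moved from EBP (-0.39, limma adjusted p = 0.109) to SQLE (-0.36, limma adjusted p = 0.0372). SQLE also passed with normexp (limma adjusted p = 0.0106), without background correction (limma adjusted p = 0.0145), with array weights (limma adjusted p = 0.00424), and without the 0 h array (limma adjusted p = 0.0110) or the 3 h array (limma adjusted p = 0.0101).

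**Figure D2:**
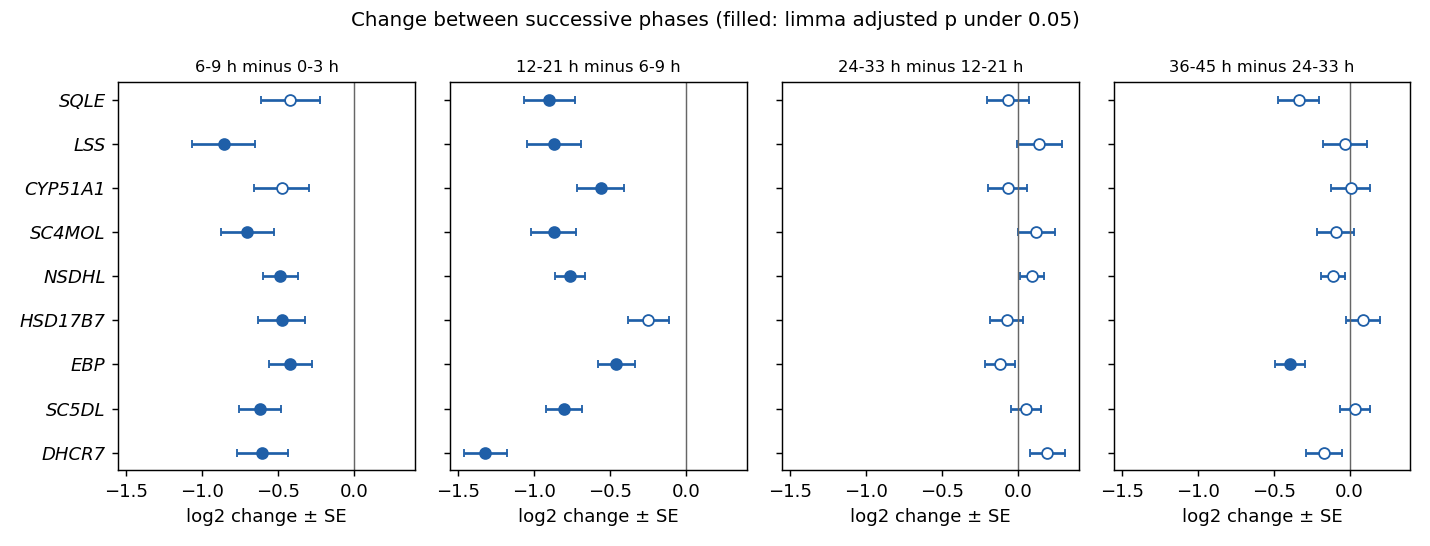
Log2 change of each gene between successive phases, with its standard error as the bar, in pathway order, filled where the limma adjusted p was under 0.05. The first and second steps lie below 0 for all 9 genes, by 0.42 to 0.86 and by 0.25 to 1.32, and the later steps lie between -0.39 and 0.19.

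Within the earlier batch alone, the line over the 8 arrays from 0 to 21 h was lower for 9 of 9 genes, against 5.49% of all probes. Its change over those 21 h ran from -0.85 for HSD17B7 to -2.31 for DHCR7, with a median of -1.69. Within the later batch, from 24 to 45 h, 2 of 9 passed, against 12.8% of all probes, which were SQLE at -0.48 (SE 0.10, limma adjusted p = 0.00271) and EBP at -0.53 (SE 0.14, limma adjusted p = 0.0127). The other 7 changed by -0.13 to 0.07 there. All 9 genes thus fell inside the first batch. In the second, 2 of 9 is not far from the 12.8% of all probes, and whether it exceeds that share was not tested.

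Neighbours in the order of slopes were not told apart. In the order SQLE, DHCR7, EBP, SC4MOL, LSS, SC5DL, NSDHL, CYP51A1 and HSD17B7, 0 of 8 neighbouring pairs differed in slope (permutation test over 100000 orders of the hours, two-sided, adjusted p = 0.898 for each pair). The widest gap was that between CYP51A1 and HSD17B7, at 0.36 with an SE of 0.24 (permutation p = 0.165, adjusted p = 0.898). Each such pair is the closest the order allows, and genes further apart in it were not compared. Taken as a description over the 8 arrays from 0 to 21 h, which share the fall in time, the 36 pairs of genes correlated at 0.80 to 0.99. Over the 8 arrays from 24 to 45 h they correlated at -0.53 to 0.85, and 20 of the 36 pairs were above 0.

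Other genes of the steps after squalene, chosen as a list beside the 9, did not all take the same course. The line was lower for 1 of these 4, where 11.5% of all probes were. The treated arrays were below 0 h for 2, where 10.3% of all probes were. The smooth curve passed for 4 of 4, where 41.9% of all probes passed. TM7SF2 and LBR both encode an enzyme that reduces the same double bond after CYP51A1. TM7SF2 was 11.13 at 0 h and 9.33 at 45 h and its treated arrays were lower than 0 h by 1.88 (SE 0.15, limma adjusted p = 3.03e-07), although its line, at -0.44, did not pass (limma adjusted p = 0.431). LBR, which is also a receptor of the nuclear lamina, went up and came back. It was 10.60 at 0 h, 11.41 at its highest and 10.58 at 45 h, and its smooth curve passed (limma adjusted p = 0.0117) while its line of -0.27 did not (limma adjusted p = 0.443). It rose by 0.43 from 0-3 h to 6-9 h (SE 0.13, limma adjusted p = 0.0204) and fell by 0.40 from 24-33 h to 36-45 h (SE 0.093, limma adjusted p = 0.00587). The line of C14orf1, at 0.08, did not pass either (limma adjusted p = 0.289).

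The enzymes before squalene, the mevalonate arm, are 9 genes with 9 tested probes. The straight line was lower for 8 of them, where 11.5% of all probes were. The treated arrays were lower than 0 h for 9, where 10.3% of all probes were. The median values were -1.18 and -1.47. HMGCS1, which condenses acetyl-CoA units into HMG-CoA, fell by 2.72 over 45 h (SE 0.51, limma adjusted p = 0.000705). MVD, the decarboxylase that makes isopentenyl diphosphate, fell by 2.07 (SE 0.47, limma adjusted p = 0.00313) and ACAT2, the thiolase, fell by 1.69 (SE 0.19, limma adjusted p = 5.93e-06). In these genes 8 of 9 fell from 0-3 h to 6-9 h, where 13.0% of all probes did. From there to 12-21 h 6 of 9 fell, where 17.8% of all probes did. Over the 9 genes after squalene the same counts were 7 and 8, and the difference between the arms was not tested.

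**Figure D3:**
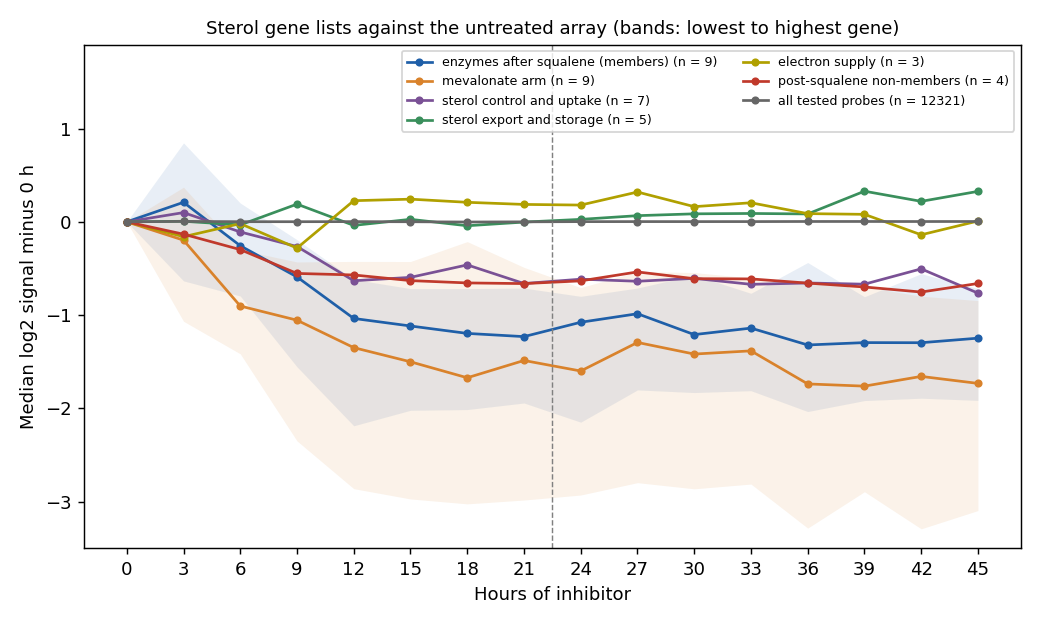
Median log2 difference from the 0 h array of the genes after squalene, of the mevalonate arm and of the related lists, against hours of treatment, with bands from the lowest to the highest gene for the first pair and a dashed line between the array batches. At 3 h the median of the 9 genes after squalene was 0.21 and that of the mevalonate arm -0.20, and from 12 h on they lay between -0.99 and -1.32 and between -1.29 and -1.76.

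Of 8 genes of sterol control and uptake 7 were tested, all but STARD4, and 3 had a lower line, where 11.5% of all probes did. INSIG1, which holds the SREBP complex in place and is itself an SREBP target, fell by 1.48 (SE 0.47, limma adjusted p = 0.0270). SREBF2 fell by 0.69 (SE 0.20, limma adjusted p = 0.0180). The median of the 7 was -0.54.

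Of 6 genes of sterol export and storage 5 were tested, all but ABCA1, and 3 had a higher line, where 12.9% of all probes did, while 0 had a lower one. NR1H3, which encodes the sterol sensor LXRα, rose by 0.88 (SE 0.19, limma adjusted p = 0.00247). MYLIP, an LXR target and ubiquitin ligase, had a line of 0.58 (SE 0.14, limma adjusted p = 0.00596), which runs through an early dip. From an untreated signal of 8.67 MYLIP went down to its lowest, 8.21, on the 9 h array, and it ended the course at 9.00. The treated arrays of MYLIP against the untreated one, at -0.065, did not pass (SE 0.13, limma adjusted p = 0.788). ABCG1, a sterol exporter, had a line of 0.12 (SE 0.044, limma adjusted p = 0.0457), but its probe was detected on 13 of 16 arrays and stayed between 7.92 and 8.15. The part of the step in array background in it was not tested. The median of the 5 was 0.12.

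The oxidases and the P450 of the pathway take their electrons from carriers, of which 3 were tested. POR, the reductase that serves SQLE, CYP51A1 and DHCR7, fell by 0.67 (SE 0.22, limma adjusted p = 0.0299). The lines of CYB5A, at 0.42 (limma adjusted p = 0.188), and CYB5R3, at 0.22 (limma adjusted p = 0.448), which pass electrons to SC4MOL and SC5DL, did not pass. From 6-9 h to 12-21 h both rose, where 16.9% of all probes did. CYB5A rose by 0.70 (SE 0.14, limma adjusted p = 0.000955) and CYB5R3 by 0.56 (SE 0.090, limma adjusted p = 0.000129), while POR fell by 0.72 (SE 0.12, limma adjusted p = 0.000157). CYB5A was lowest at 3 h, at 10.44, and was 11.16 at both 0 h and 45 h.

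**Figure D4:**
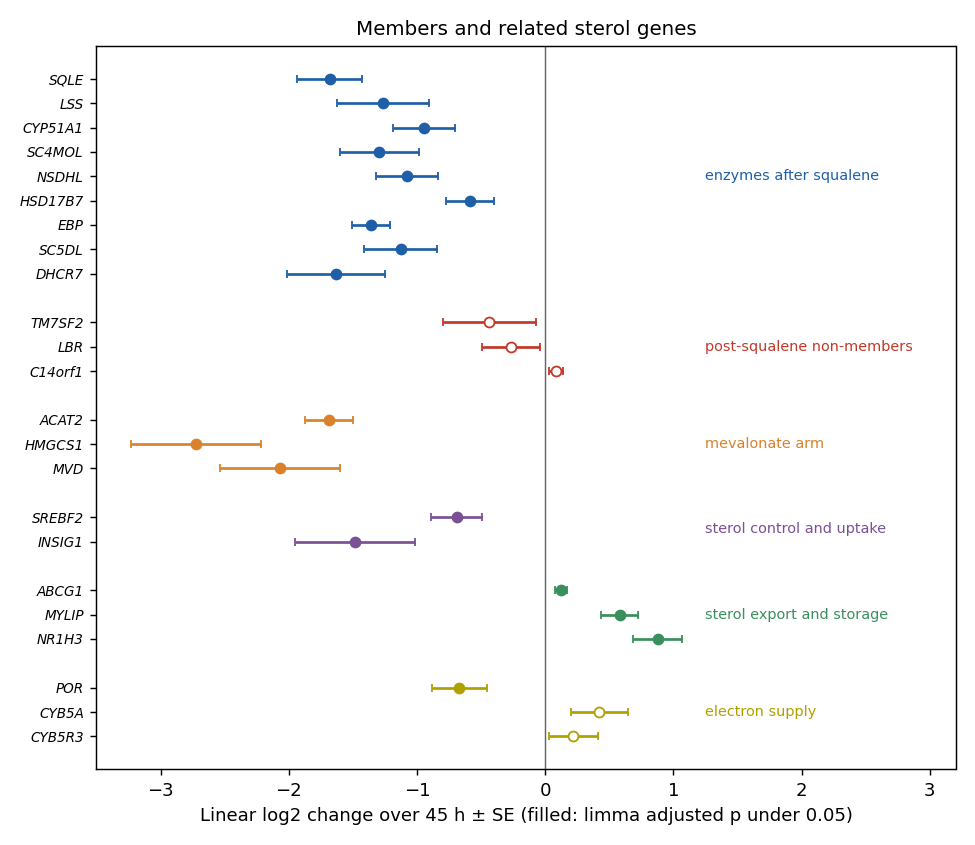
Linear log2 change over 45 h, with its standard error as the bar, of the 9 genes and of the related genes named in the text, with filled points where the limma adjusted p was under 0.05. All 9 lie between -1.68 and -0.59, HMGCS1 lies lowest at -2.72, and NR1H3, at 0.88, is the highest.

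The probes most like the mean course of the 9 genes over the 16 arrays were those of MARS (Pearson r = 0.989), PCK2 (r = 0.988), IGFBP3 (r = 0.987), C12orf5 (now TIGAR, r = 0.987) and FDFT1 (r = 0.986), the squalene synthase at the step just before SQLE. Over the later 8 arrays alone r was 0.78 for MARS, 0.91 for PCK2, 0.31 for IGFBP3, 0.63 for C12orf5 and 0.76 for FDFT1. These correlations are descriptions, since all points share 1 time course and its early step. The nearest probe of another gene was LHB for SQLE (r = 0.983), CXorf44 (now VCF2) for LSS (r = 0.981), CRSP8 (now MED27) for CYP51A1 (r = 0.933), WWP2 for SC4MOL (r = 0.984) and C6orf65 (now BEND6) for NSDHL (r = 0.983). It was ALPP for HSD17B7 (r = 0.963), YWHAB for EBP (r = 0.978), C6orf65 again for SC5DL (r = 0.990), and for DHCR7 the second probe of LSS (r = 0.978). Over the later 8 arrays these r ran from -0.053 for the second LSS probe with DHCR7 to 0.92 for YWHAB with EBP. A high r does not mean a like size of change. LHB had a line of -0.43 against -1.68 for SQLE, and YWHAB one of -1.05 against -1.36 for EBP.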

How the data were processed

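Gene expression was measured in 16 cultures of MCF10HER2 cells, 1 Illumina human Ref-8 v2 array each. The authors deposited probe intensities, not normalized and without background subtraction (lowest value 98.6), and a detection p-value beside it. Per the labels, biotinylated cRNA was hybridised; the scanning software is not given in the sources used here. Most detection p-values the authors deposited are steps of the negative controls, but those of 1504 probes are not, including the SC5DL probe and the second LSS probe.

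Intensities were corrected, quantile-normalized and taken to log2 with neqc (limma 3.58.1, R 4.3.3; offset 16, negative controls inferred from the detection p-values). A probe was tested if its detection p was under 0.05 on at least 3 arrays, as for 12321 of 20589 probes with 11565 symbols. Linear models in limma (eBayes with trend) fitted a natural cubic spline of hours (4 degrees of freedom), a straight line, treated against untreated arrays with a centred spline (3 degrees of freedom), and successive differences of 5 phase means. P-values were adjusted by Benjamini-Hochberg over all tested probes, at 0.05. The fold of 1.7 is that of the study, taken here against 0 h.

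P-values measure the scatter of single arrays about a trend, and the number of arrays limits the precision. Genes named in the text are the 9 enzymes, genes of the related lists, and the probes most alike by Pearson r. Of each related list at most 3 were taken by the size of their linear change, among those reported by name, and any called against the list. Some genes of the related lists are counted in the lists but not reported here by name. Members, lists and tests were chosen with earlier results of these data known. Alternatives covered background correction, scaling, detection filter, probe choice, baseline, spline, array weights, batch, and leaving out arrays. The code was tested on simulated data.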

Additional observations from a re-analysis of the deposited data

How the results depend on the processing

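The smooth curve passed for 8 to 9 of the 9 genes under all settings (8 with median scaling), and 8 were lower by 2-fold in place of 1.7-fold. The count of 9 lower lines became 2 with array weights, 5 with array batch as a block and 2 within 24-45 h, and 7 to 9 without single arrays. The count of 9 below the untreated array became 1 with the treated arrays as one mean. The 7 falls from 0-3 h to 6-9 h became 2 with array weights, 1 without the 9 h and 18 h arrays, and 2 to 8 without single arrays. The 8 falls from 6-9 h to 12-21 h became 5 with median scaling and 7 to 8 without single arrays. The 1 fall from 24-33 h to 36-45 h became 2 with normexp, without background correction and with array weights, and 1 to 2 without single arrays. From 12-21 h to 24-33 h the count was 0 of 9 throughout, and 0 of 8 neighbouring pairs differed in slope with quantile normalization, median scaling or normexp, the settings run for it. Within 24-45 h the line, scaled to 45 h, changed sign for LSS (0.13), CYP51A1 (0.050), HSD17B7 (0.16) and SC5DL (0.060). The cause of these changes was not tested. The batch block could not be fitted for the phases, since each phase lies in 1 batch. Median scaling moved the median of all probes by -0.11 to 0.058 against 0 h. No paired analysis was possible because there is only 1 array per time point. All 9 chosen probes were detected on every array, so background limits none of these levels by detection.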
